A study of Mus musculus with 8 samples.

Results

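The erythroid transcription factor genes Gata1 and Klf1, the erythropoietin receptor gene Epor, the transferrin receptor gene Tfrc and the carbonic anhydrase genes Car1 and Car2 were examined in RNA from isolated spleen B cells. These 6 genes were taken by symbol from a table of 49315 features, each matched 1 feature, and all 6 passed the filter for testing (a TPM of at least 1 in at least 4 of 8 libraries). TPM, transcripts per 1000000 transcripts, is a level per transcript length, so the levels of different genes can be set side by side. The genes were selected on the levels of red cell transcripts in this same contrast, in which globins were already known to be higher in the mutant libraries, and they serve to place that signal among the stages of red cell formation. Their differences between the groups are therefore given as descriptions, with no p-value for any of them.

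Poly(A)-enriched RNA was sequenced from total B cells of mice that were 4 months old. Fcgr2b, the gene of the inhibitory receptor FcγRIIB, was knocked out in every mouse of both groups. The 4 control samples were FcγRIIB-/- with CD23Cre+, where CD23 is a surface protein of mature B cells whose promoter names the Cre transgene, and the 4 UMPS_BKO samples were FcγRIIB-/- with a B cell knockout of Umps, which encodes the last enzyme of uridine monophosphate synthesis. Nothing says that each replicate came from a separate animal, so the spread between samples may be technical.

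Red cells form in the bone marrow and, in mice, also in the spleen. GATA1 opens the erythroid programme and KLF1, itself a GATA1 target, activates the adult β-globin gene and many genes of membrane and heme formation. Erythropoietin acts through its receptor on progenitors and early erythroblasts, and the transferrin receptor brings in the iron for heme until it is shed as reticulocytes mature. Carbonic anhydrases interconvert carbon dioxide and bicarbonate, and CAR1 and CAR2 are the main cytosolic forms of red cells. Tfrc is also used by dividing lymphocytes, Gata1 also acts in megakaryocytes, mast cells and eosinophils, and Car2 is made in several other tissues.

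The libraries differed in depth and in composition. The depth recovered from the TPM steps was 5809233 to 18844637 reads for control libraries and 10593527 to 28570068 reads for UMPS_BKO libraries, and a detected feature held a median of 125 to 435 reads. Ribosomal RNA-like features took 5.43% to 60.3% of TPM among controls against 37.6% to 60.5% in UMPS_BKO. Mitochondrial features took 5.33% to 9.12% among controls and 8.42%, 19.2%, 18.5% and 17.2% in UMPS_BKO replicates 1 to 4, and UMPS_BKO replicate 2 had 8626 features above 0 where the other libraries had 10539 to 15889. The part of these measures in the group differences was not tested. Umps was at 16.1, 35.1, 18.6 and 8.98 TPM in control replicates 1 to 4 and at 5.99, 1.05, 13.6 and 2.16 TPM in UMPS_BKO replicates 1 to 4, with overlapping groups. The labels do not name the exons removed, so this level does not test them. All 15 genes of the pan-B cell list were tested, but their summed level was 7427 to 32116 TPM in the controls against 857, 3077 and 3862 TPM in UMPS_BKO replicates 4, 2 and 3 and 16187 TPM in UMPS_BKO replicate 1. Cd74, which encodes the invariant chain of antigen presentation, made up 22888 TPM of the highest sum. Of the 15 genes 12 were lower and 3 higher in mean log2 level in UMPS_BKO, the latter being Pax5, Ebf1 and Cr2 (log2 differences 0.30, 0.08 and 0.23). Among all tested genes 15.7% had a difference above 0, so this count by itself is near that of all genes. The median log2 difference was −1.81 over the 15 genes and −0.90 over all tested genes. Pax5, a B cell identity factor, reached 788 TPM in UMPS_BKO replicate 2 against at most 428 TPM among controls. Transcripts of hepatocytes reached 43109 TPM summed over 11 genes in control replicate 2 and 12954 TPM in control replicate 3, and those of skeletal muscle reached 129711 TPM over 10 genes in UMPS_BKO replicate 4. Fewer cells of a type and less RNA per cell cannot be told apart in such bulk samples.

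The 6 genes were low to moderate in every library, from listed at 0 to 442 TPM, while the 4 adult globin genes summed to 114 to 490 TPM among controls against 4108 to 46261 TPM in UMPS_BKO. Car2 was the only gene of the 6 whose groups did not overlap, with UMPS_BKO above the controls. Gata1 and Klf1 were each above every control in 3 of 4 UMPS_BKO libraries. Epor, Tfrc and Car1 overlapped widely. UMPS_BKO replicate 3, the library richest in globin, held the highest level of Gata1, Epor, Car1 and Car2.

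As a description, 0 of the 6 genes were among those called over all genes (limma on log2(TPM + 1), Benjamini-Hochberg adjusted p under 0.05), and 0 had an unadjusted p under 0.05. Among the 10708 genes tested, 4 were called higher (0.0374%) and 10 were called lower (0.0934%). At an unadjusted p under 0.05, 99 of them were higher and 1760 lower. For a group difference without overlap the count was 1 of 6 higher, against 0.504% of tested genes higher and 4.81% lower. The median log2 difference, UMPS_BKO minus control, was 0.86 over the 6 genes and −0.90 over all tested genes, and it was above 0 for 5 of the 6 and for 15.7% of all tested genes. Since these genes were chosen with this contrast known, nothing is read from these counts. With median-of-ratios scaling, the median of all tested genes was −0.15.

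**Figure D1:**
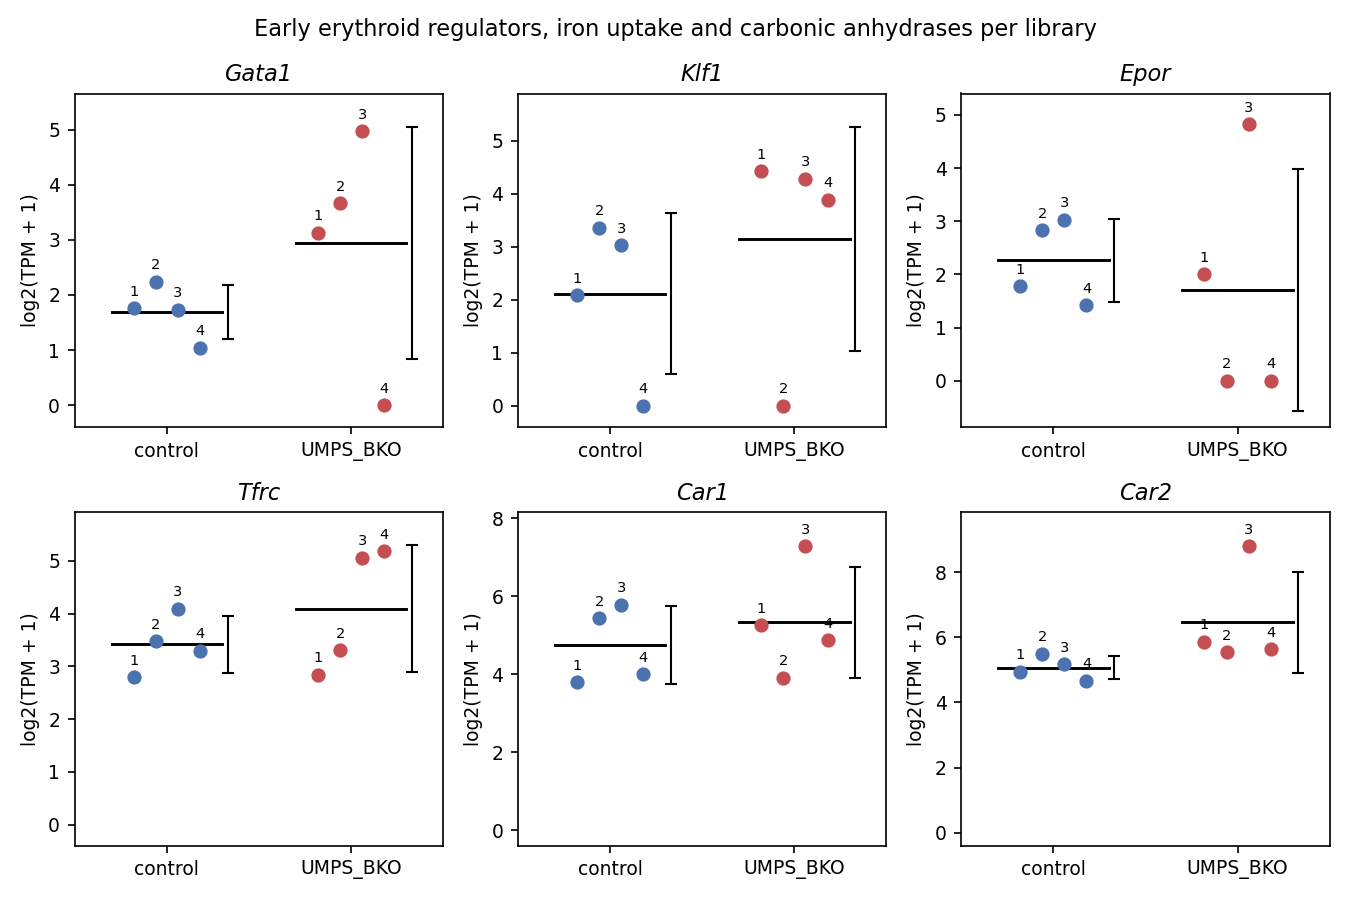
Level of each of the 6 genes in each library, as log2(TPM + 1), with replicate numbers beside the points, the group mean as a line and its SD as an error bar (n = 4 per group). Car2 alone has all UMPS_BKO points above the controls, and UMPS_BKO replicate 3 is highest for Gata1, Epor, Car1 and Car2.

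Gata1 (ENSMUSG00000031162, GRCm38 chromosome X, 7959260 to 7978071, minus strand) encodes the founding transcription factor of the erythroid lineage. It stood at 2.39, 3.73, 2.33 and 1.06 TPM in control replicates 1 to 4 and at 7.77, 11.7, 30.3 and 0 TPM in UMPS_BKO replicates 1 to 4. UMPS_BKO replicates 1 to 3 lay above all controls and replicate 4 below them. These values rested on 74, 53, 14 and 28 recovered reads among controls against 357, 281, 982 and 0 reads in UMPS_BKO. The log2 difference was 1.25 ± 0.95 (SE, n = 4 per group), 1.84 with median-of-ratios scaling and 0.57 without UMPS_BKO replicate 3. Without UMPS_BKO replicate 4, the library richest in muscle transcripts, it was 2.23.

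Klf1 (ENSMUSG00000054191, chromosome 8, 84901928 to 84905291, plus strand) encodes the zinc finger factor that binds CACCC elements of globin and other erythroid genes. It was at 3.24, 9.31, 7.16 and 0 TPM among controls against 20.5, 0, 18.5 and 13.8 TPM in UMPS_BKO. In each group 1 library was listed at 0, and the other UMPS_BKO libraries lay above all controls. The reads were 63, 83, 27 and 0 among controls against 592, 0, 375 and 335 in UMPS_BKO. The log2 difference was 1.03 ± 1.07 (SE), 1.54 after scaling, 2.08 without UMPS_BKO replicate 2 and 0.32 without control replicate 4, the libraries listed at 0. Gata1 and Klf1 did not share their zeros. UMPS_BKO replicate 2 held 281 reads of Gata1 and none of Klf1, and UMPS_BKO replicate 4 held 335 reads of Klf1 and none of Gata1. In UMPS_BKO replicate 2, 2 of 20 housekeeping genes, Gusb and Pgam1, were also listed at 0, against 0 of 20 in every other library. That list was chosen after the values were seen.

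Markers of other cells that use GATA1 were set beside these levels. The megakaryocyte and platelet list, all 11 of 11 genes in the table, summed to 24.1 to 42.6 TPM among controls against 24.1, 115, 140 and 48.7 TPM in UMPS_BKO replicates 1 to 4. It was thus high in UMPS_BKO replicates 2 and 3, which also led for Gata1, while UMPS_BKO replicate 1 had no more than the controls. Pf4, the platelet chemokine platelet factor 4, reached 55.9 TPM in UMPS_BKO replicate 3 and 15.5 TPM in control replicate 1. The mast cell, basophil and eosinophil list, with 10 of 11 genes in the table, summed to 10.7 to 42.5 TPM among controls against 0 to 23.7 TPM in UMPS_BKO. Its markers Fcer1a and Tpsb2 were at 0 in all libraries, but others were detected. Prg2 was at 18.4, 11.9, 18.9 and 4.30 TPM among controls against 8.11, 0, 0 and 0 TPM in UMPS_BKO. Mcpt8 was at 3.78, 5.22, 15.7 and 5.29 TPM among controls against 12.0, 0, 0 and 0 TPM in UMPS_BKO. Hdc, the remaining tested gene, had a log2 difference of 0.35, against −2.87 for Prg2 and −1.98 for Mcpt8. The part of the megakaryocyte transcripts in the Gata1 level was not tested.

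Promoter sequences were searched for short patterns of the type that these regulators bind. RefSeq (GRCm38.p6) held such sequences for 4 of the 6 genes, Gata1, Klf1, Epor and Tfrc. They are shown to compare the genes with each other. The 250 bases before the annotated start are printed 5′ to 3′ on the gene's strand, with capitals marking matches on either strand to GATAA, the core bound by GATA factors (TTATC on the other strand), and to CCNCNCCC, the CACCC type of element bound by KLF factors. Overlapping matches run together.
Gata1 (chrX:7967911-7968160, minus strand): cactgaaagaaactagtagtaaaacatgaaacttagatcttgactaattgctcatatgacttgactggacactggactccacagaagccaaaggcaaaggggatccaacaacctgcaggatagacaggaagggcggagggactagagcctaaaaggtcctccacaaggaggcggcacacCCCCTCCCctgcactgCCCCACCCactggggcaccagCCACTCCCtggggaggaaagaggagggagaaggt
Klf1 (chr8:84901732-84901981, plus strand): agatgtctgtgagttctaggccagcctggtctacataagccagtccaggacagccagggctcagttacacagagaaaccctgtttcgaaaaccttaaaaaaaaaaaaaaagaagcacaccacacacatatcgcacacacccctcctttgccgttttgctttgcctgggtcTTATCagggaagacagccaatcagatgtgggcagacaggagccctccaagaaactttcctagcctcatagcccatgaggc
Epor (chr9:21963577-21963826, minus strand): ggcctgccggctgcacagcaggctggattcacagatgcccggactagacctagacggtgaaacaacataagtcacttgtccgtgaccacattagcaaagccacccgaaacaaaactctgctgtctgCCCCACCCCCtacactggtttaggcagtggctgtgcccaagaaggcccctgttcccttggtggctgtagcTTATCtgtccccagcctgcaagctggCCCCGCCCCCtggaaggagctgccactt
Tfrc (chr16:32608646-32608895, plus strand): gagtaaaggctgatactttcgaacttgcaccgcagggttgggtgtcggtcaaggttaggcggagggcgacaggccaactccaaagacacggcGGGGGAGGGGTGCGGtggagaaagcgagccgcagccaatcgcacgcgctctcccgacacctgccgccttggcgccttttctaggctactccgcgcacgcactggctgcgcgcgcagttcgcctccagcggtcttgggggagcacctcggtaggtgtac
The RefSeq start used for Gata1 lies 10161 bases inside the GENCODE gene, which also has a distal start, and those of Klf1, Epor and Tfrc lie 54, 70 and 24 bases from the GENCODE start. The Klf1 window held 1 GATAA match, 80 to 76 bases before the start, and no CCNCNCCC match. The Epor window held 1 GATAA match, 54 to 50 bases before the start, and 4 CCNCNCCC matches in overlapping pairs. The Gata1 and Tfrc windows held 3 CCNCNCCC matches each and no GATAA. Of 32851 RefSeq promoter windows of the same length, 22.6% held GATAA, 45.9% held CCNCNCCC and 6.89% held both, so single matches are common. A match is a description of the letters and not of binding.

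Epor (ENSMUSG00000006235, chromosome 9, 21958897 to 21963506, minus strand) encodes the receptor through which erythropoietin keeps early erythroblasts alive. It was at 2.42, 6.13, 7.14 and 1.67 TPM among controls against 3.02, 0, 27.3 and 0 TPM in UMPS_BKO. The UMPS_BKO libraries spanned the controls, with 1 above, 1 within and 2 below them. The reads were 61, 71, 35 and 36 among controls against 113, 0, 722 and 0 in UMPS_BKO. The log2 difference was −0.55 ± 1.01 (SE) and −0.09 with median-of-ratios scaling, and its sign turned with quantile normalization (0.39), array weights (0.34), without UMPS_BKO replicates 2 or 4 (0.01 in both cases) and without control replicate 2 and UMPS_BKO replicate 4 together (0.21). Without UMPS_BKO replicate 3 it was −1.59. No direction can be given for Epor.

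Tfrc (ENSMUSG00000022797, chromosome 16, 32608920 to 32632794, plus strand) encodes the receptor for iron-loaded transferrin. It was at 5.92, 10.1, 16.1 and 8.85 TPM among controls against 6.16, 8.89, 32.3 and 35.2 TPM in UMPS_BKO. UMPS_BKO replicates 1 and 2 lay among the controls, and replicates 3 and 4 lay above them. The reads were 465, 365, 245 and 593 among controls against 718, 541, 2650 and 3447 in UMPS_BKO. The log2 difference was 0.68 ± 0.71 (SE), 1.57 after scaling, 0.36 without UMPS_BKO replicate 3 and 0.32 without replicate 4. With UMPS_BKO replicate 1 as the only mutant library it turned to −0.58. UMPS_BKO replicate 4, highest for Tfrc, was the library with 129711 TPM of the 10 muscle markers and with Gata1 and Epor listed at 0, and the part of the muscle transcripts in its Tfrc level was not tested. The proliferation list, which marks dividing cells of any type, summed to 138 to 580 TPM among controls against 44.0 to 284 TPM in UMPS_BKO. Its sum was lowest in UMPS_BKO replicate 4 and, within UMPS_BKO, highest in replicate 3.

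Car2 (ENSMUSG00000027562, chromosome 3, 14886273 to 14900770, plus strand) encodes the fast cytosolic carbonic anhydrase and Car1 (ENSMUSG00000027556, 14766216 to 14808368, minus strand) the slower red cell form. Car2 was at 29.8, 43.8, 34.9 and 24.4 TPM among controls against 56.9, 45.7, 442 and 48.7 TPM in UMPS_BKO. All UMPS_BKO libraries lay above all controls, but replicate 2 exceeded the highest control only narrowly. The reads were 917, 618, 208 and 641 among controls against 2597, 1088, 14209 and 1867 in UMPS_BKO. The log2 difference was 1.39 ± 0.73 (SE), 2.32 with median-of-ratios scaling and 0.61 without UMPS_BKO replicate 3. That library held 10.1 times the highest control level of Car2.

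Car1 was at 12.9, 42.1, 54.0 and 15.0 TPM among controls against 37.0, 14.0, 155 and 28.1 TPM in UMPS_BKO. Only UMPS_BKO replicate 3 lay outside the range of the controls. The reads were 204, 306, 166 and 203 among controls against 869, 172, 2562 and 554 in UMPS_BKO. The log2 difference was 0.57 ± 0.78 (SE), 1.45 with quantile normalization, and turned to −0.08 without UMPS_BKO replicate 3. Control replicates 2 and 3, the highest controls for Car1, were also those rich in hepatocyte transcripts, whose part in the Car1 level was not tested. Car1 overlaps the processed pseudogene Gm16399 on the same strand, so the assignment of its reads is uncertain to that extent. Car2 exceeded Car1 2.32-, 1.04- and 1.63-fold in control replicates 1, 2 and 4 and reached 0.646 of it in replicate 3. In UMPS_BKO the ratio was 1.54, 3.26, 2.86 and 1.74, so the groups overlapped.

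The other carbonic anhydrases were mostly low. Of 14 further genes in the table only Car3 was tested, and Car6, Car10, Car12 and Car15 were at 0 in all libraries. Car3 lies between Car1 and Car2 on chromosome 3 (14863512 to 14872523, plus strand) and is a muscle and liver form. It was at 4.18, 324, 118 and 2.96 TPM among controls against 0.0926, 4.68, 4.86 and 324 TPM in UMPS_BKO. It was thus high in the 2 hepatocyte-rich controls and in the muscle-rich UMPS_BKO library, and low in UMPS_BKO replicate 3, where both of its neighbours were highest. Car13, the next gene of the cluster, was listed at 0, 9.03, 2.47 and 1.57 TPM in control replicates 1 to 4 and at 0 in all UMPS_BKO libraries. It was named after its values were seen.

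To stage the signal, each gene was expressed per 10000 TPM of adult globins in the same library. Gata1 stood at 51.4, 76.2, 205 and 49.0 among controls against 13.4, 8.83, 6.56 and 0 in UMPS_BKO. Car2 stood at 641, 895, 3065 and 1128 among controls against 98.5, 34.4, 95.5 and 119 in UMPS_BKO. Both were below every control in all 4 UMPS_BKO libraries, and so were Epor, Tfrc and Car1. The control median was 8.29 times the UMPS_BKO median for Gata1, 10.4 times for Car2, 16.0 times for Car1, 34.9 times for Tfrc and 38.8 times for Epor. Klf1, with a ratio of 6.89, had overlapping groups because control replicate 4 was listed at 0. The direction of these ratios is set by the globins, which were known to be higher in UMPS_BKO. The lower ratios of these 5 genes in UMPS_BKO therefore do not by themselves compare red cell stages between the groups. The part of other cells in the control levels was not tested. UMPS_BKO replicate 3 held the highest levels of 4 of the 5. Its ratios lay within the range of the other mutants for Gata1 (6.56), Car1 (33.4) and Car2 (95.5). For Epor it had the highest mutant ratio, 5.91 against 5.22, 0 and 0 in UMPS_BKO replicates 1, 2 and 4.

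The same was done with later erythroid genes other than the globins. Per 1000 TPM of 24 membrane and heme synthesis genes, the groups overlapped for all 6 genes. Gata1 stood at 48.5, 8.76, 7.65 and 8.74 among controls against 35.5, 58.7, 20.3 and 0 in UMPS_BKO. For Car2 the medians were 158 in the controls and 244 in UMPS_BKO, and for Car1 151 and 89.1. The membrane and heme genes summed to 49.3 to 426 TPM among controls against 200 to 374 TPM in UMPS_BKO replicates 1, 2 and 4, and reached 1498 TPM in UMPS_BKO replicate 3. The heme list includes Alas1, the form of the first heme enzyme that serves all tissues, which stood at 79.2 TPM in the hepatocyte-rich control replicate 2 and at 2.89 to 19.3 TPM elsewhere.

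**Figure D2:**
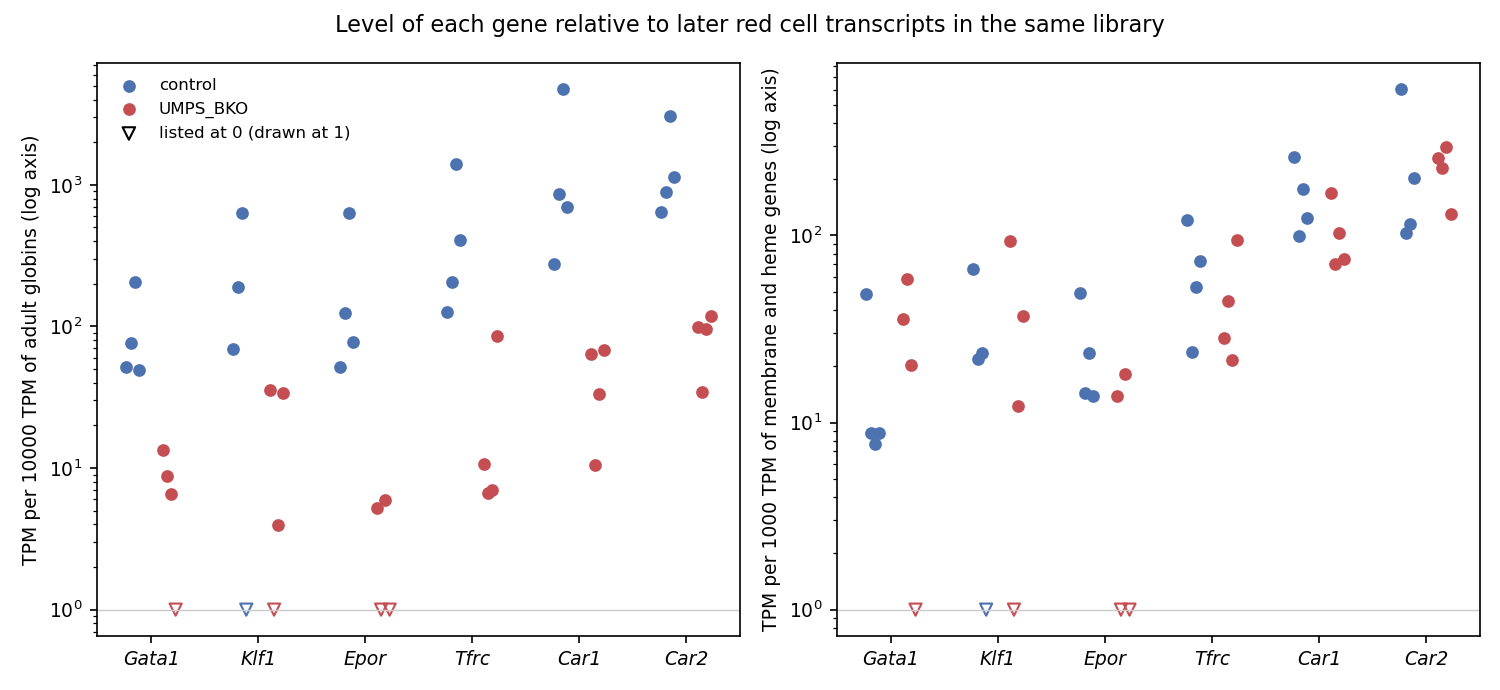
Each of the 6 genes relative to later red cell transcripts in the same library, on log axes, per 10000 TPM of 4 adult globins (left) and per 1000 TPM of 24 membrane and heme genes (right). Points are libraries, and triangles drawn at 1 are libraries in which the gene was listed at 0. The groups separate on the left for every gene but Klf1 and overlap on the right for all 6.

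The surrounding pathway was described from lists chosen with earlier results known. Of the 4 adult globin genes, 3 passed as higher in UMPS_BKO. Of 10 tested erythroid membrane genes, from 15 in the table, 0 passed in limma, with 3 higher and 0 lower at an unadjusted p under 0.05. Over all 10708 tested genes, 99 were higher and 1760 lower at that threshold. The median log2 difference of the membrane genes was 1.70, and all 10 differences were above 0, as were 15.7% of those of all tested genes. Slc4a1, the anion exchanger band 3, had groups that did not overlap, at up to 4.63 TPM among controls against 9.52 to 197 TPM among UMPS_BKO libraries (limma, adjusted p = 0.277).

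Of 9 heme synthesis genes 0 passed in limma, with 1 higher at an unadjusted p under 0.05, and their median was 0.20. That gene was Alas2, the erythroid form of the first enzyme, at 0, 15.9, 0.676 and 1.92 TPM among controls against 36.7, 49.4, 259 and 25.9 TPM in UMPS_BKO, without overlap (log2 difference 4.33 ± 0.96, SE; limma, adjusted p = 0.152). Of 14 tested genes of late erythroblasts and reticulocytes, 1 passed as higher and 0 as lower, 4 and 1 had an unadjusted p under 0.05, and the median was 0.58. Bpgm, which makes the 2,3-bisphosphoglycerate that tunes oxygen release, was at 3.95 to 21.0 TPM among controls against 51.9, 42.6, 269 and 40.8 TPM in UMPS_BKO, without overlap (limma, adjusted p = 0.283). Groups without overlap, higher in UMPS_BKO, were found for 1 of 9 heme synthesis, 3 of 10 membrane and 3 of 14 late erythroblast genes tested. The share over all tested genes was 0.504%. Log2 differences were below 0 for 3 of the 9 heme genes, Alas1 among them, for 0 of the 10 membrane genes and for 5 of the 14 late genes, such as Blvrb (−1.78), a heme breakdown enzyme, and Fbxo7 (−0.85), a ubiquitin ligase subunit. Blvrb and Fbxo7 were named after their values were seen.

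Partners of the early genes were examined in the same way. Of 13 tested erythroid transcription factors other than Gata1 and Klf1, 0 passed in limma and 0 had an unadjusted p under 0.05. Their median log2 difference of −0.82 lay near the −0.90 of all tested genes. Lmo2 and Ldb1, which bridge GATA1 to its partners and are also made in B cells, stood at 65.3 to 163 and 28.3 to 96.3 TPM among controls against 12.1 to 110 and 13.1 to 47.9 TPM in UMPS_BKO. Tal1, the erythroid partner of that complex, named after its values were seen, was at 0.576, 2.04, 0.927 and 4.32 TPM among controls against 6.30, 0, 20.5 and 1.78 TPM in UMPS_BKO. Its groups overlapped, and its highest value was again in UMPS_BKO replicate 3.

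Downstream of the erythropoietin receptor, 9 of 13 listed genes in the table were tested, and 0 passed in limma (0 higher and 1 lower at an unadjusted p under 0.05, median −0.83). Over all 10708 tested genes, 99 were higher and 1760 lower at that threshold. Pim1, a kinase gene induced by this and many other cytokine receptors, stood at 31.7 to 108 TPM among controls against 20.4 to 38.4 TPM among UMPS_BKO libraries, with overlapping groups. Erfe, the hormone that erythroblasts release in answer to erythropoietin, was at 0 in all libraries. Of 14 genes of iron uptake and handling beside Tfrc, 0 passed in limma (0 higher and 1 lower at an unadjusted p under 0.05), with a median of −0.52. Tfr2, a second transferrin receptor of hepatocytes and erythroblasts, was at 67.5 and 22.3 TPM in the hepatocyte-rich control replicates 2 and 3 and at 0 to 4.72 TPM in the other libraries. Of the 4 embryonic and fetal-type globin genes, Hba-x, Hbb-y and Hbb-bh2 were at 0 in all libraries, and Hbb-bh1 reached 5.30 TPM in control replicate 3 and was at 0 in all UMPS_BKO libraries.

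**Figure D3:**
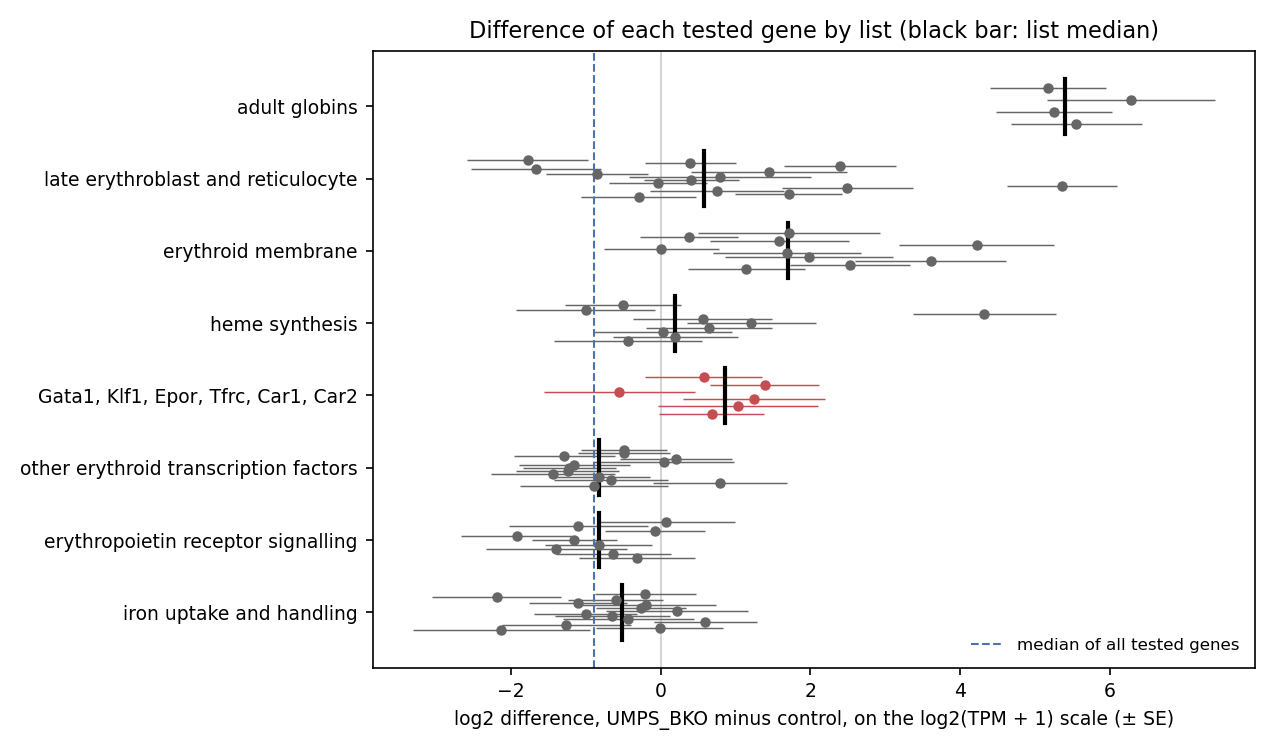
Log2 difference, UMPS_BKO minus control, on the log2(TPM + 1) scale with its SE for each tested gene of the erythroid lists (points), the list median (black bar) and the median of all tested genes (dashed line, −0.90). The adult globins have a median of 5.40, the 6 genes in red values between −0.55 and 1.39, and the other transcription factors a median of −0.82.

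**Figure D4:**
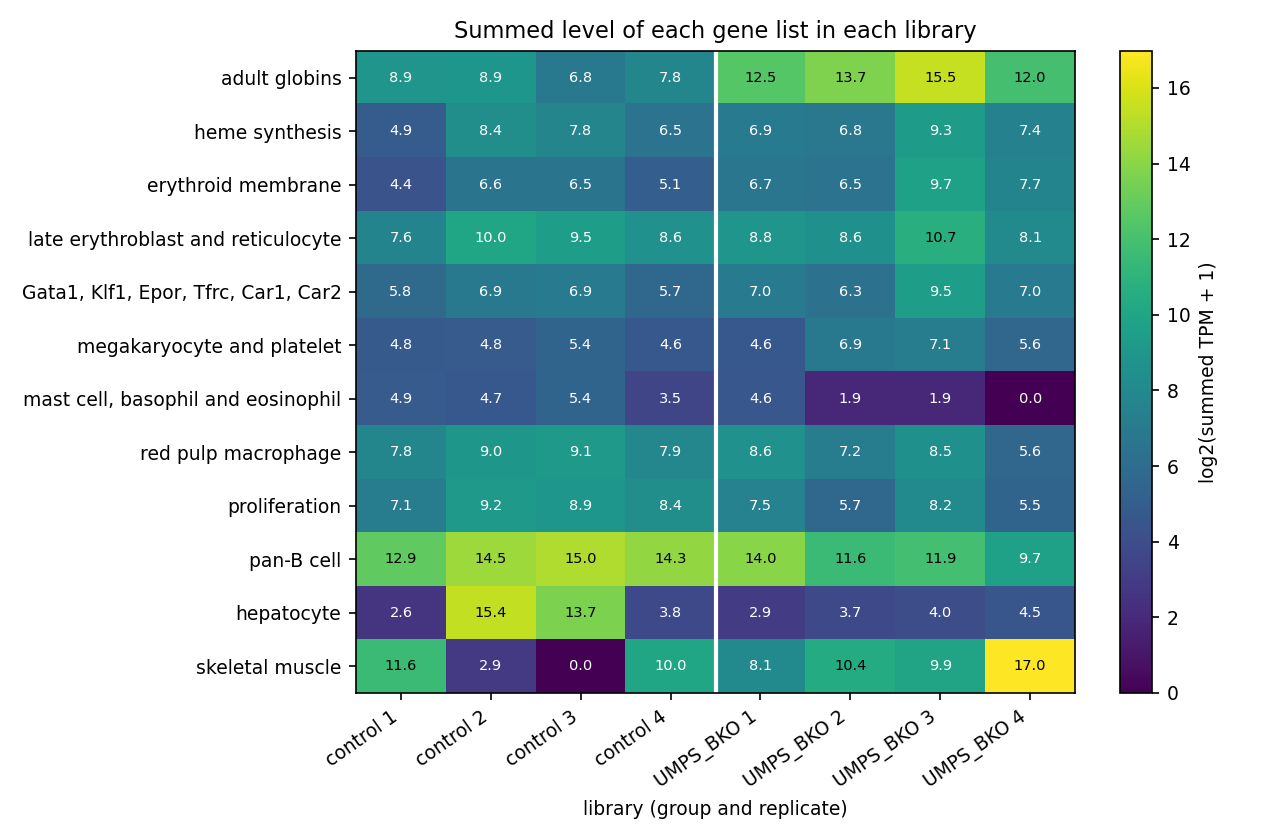
Summed level of each gene list in each library, as log2(summed TPM + 1), for the red cell lists, the 6 genes and markers of other cell types. UMPS_BKO replicate 3 is highest for the 6 genes, the adult globins and the membrane, heme and late erythroblast lists, hepatocyte genes stand out in control replicates 2 and 3, and muscle genes in UMPS_BKO replicate 4.

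Across libraries, UMPS_BKO replicate 3 held the highest level of 4 of the 6 genes, whereas Klf1 was highest in UMPS_BKO replicate 1 and Tfrc in UMPS_BKO replicate 4. Among all tested genes, 709 of 10708 (6.62%) were highest in UMPS_BKO replicate 3. The level in that library was 8.13 times the highest control for Gata1, 10.1 times for Car2, 3.83 times for Epor, 2.86 times for Car1, 2.01 times for Tfrc and 1.98 times for Klf1. The summed level of Gata1, Klf1 and Epor was 8.05, 19.2, 16.6 and 2.73 TPM for control replicates 1 to 4, 31.3, 11.7 and 13.8 TPM in UMPS_BKO replicates 1, 2 and 4, and 76.1 TPM in UMPS_BKO replicate 3. UMPS_BKO replicate 2, second in globin at 13275 TPM, held a lower sum than control replicates 2 and 3, which had 490 and 114 TPM of globin. Its sum was Gata1 alone, at 11.7 TPM against at most 3.73 TPM among controls, with Klf1 and Epor listed at 0. That library had the fewest features above 0 (8626), and the part of this in its zeros was not tested.

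The genes whose levels over the 8 libraries were most like each of the 6 were sought among 9531 tested genes, by Pearson's r of log2(TPM + 1), as a description. For Gata1 they were Ube2l6 (r = 0.960), a gene of the late erythroblast list, and Zfp120 (r = 0.914). Car2 was most like Trim10 (r = 0.961) and Tspan33 (r = 0.937), from the late erythroblast and membrane lists. Car1 was most like Epb41 (r = 0.976), which encodes the membrane skeleton protein 4.1, and Csrnp2 (r = 0.959). Klf1 was most like Afg1l (r = 0.954) and Cbwd1 (r = 0.943), Epor most like Actn1 (r = 0.951) and Pilrb2 (r = 0.940), and Tfrc most like Nipa1 (r = 0.910) and Gata2 (r = 0.909). With 8 libraries and so many genes high values of r are common. Afg1l and Cbwd1 share with Klf1 their lowest levels in UMPS_BKO replicate 2 and control replicate 4, and Pilrb2 shares with Epor its zeros in UMPS_BKO replicates 2 and 4.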

How the data were processed

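RNA from an RNeasy Plus Mini kit was poly(A)-enriched for NEBNext Ultra II libraries, per the labels' protocols. Per the submitters' processing notes, the tools were STAR 2.5.2b, Subread 1.5.2, featureCounts and bcl2fastq 2.20, and the build GRCm38. The authors deposited TPM in 1 column per library, each summing to 1000000. Annotation release, strand setting, filters and TPM formula: not given in the sources used here. TPM sums include ribosomal RNA-like and mitochondrial features, whose share lowers all other values.

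Columns were matched to samples by library name. TPM times the exon length of GENCODE M21 (49056 features) fell on whole multiples of a step, 90.5% to 92.8% of values under 30 reads within 0.05, which gave reads. Reads without molecular identifiers are not independent molecules. Genes with a TPM of at least 1 in at least 4 libraries entered limma 3.58.1 (R 4.3.3) as log2(TPM + 1), without covariates and with a trended eBayes prior, for two-sided p-values with Benjamini-Hochberg adjustment, so differences understate those of low genes. Fits and read recovery were checked on simulated data. Python 3.11.15 with numpy 2.4.6 and pandas 2.3.3 was used otherwise.

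The 6 genes and all lists were chosen with earlier results of these data known. Named genes were the 6, up to 4 of each list with the smallest p, the 2 most similar genes for each of the 6, excluding antibody segments, pseudogenes and provisional symbols, and Umps. Several genes under this rule are not reported here. Alternatives were pseudocounts of 0.1 and 5, no filter, a mean TPM of at least 5, median-of-ratios and quantile scaling, ribosomal RNA-like and mitochondrial features removed, array weights, an untrended prior, a replicate block and libraries left out.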

Additional observations from a re-analysis of the deposited data

Results flagged for a closer look

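Among the 12 groups of 4 libraries examined (each of the 6 genes in each genotype, on the log2(TPM + 1) scale), 2 held a library far from the other three by Dixon's criterion, which chance meets in about 1 of 20 groups. For Klf1, UMPS_BKO replicate 2 was listed at 0 against 13.8 to 20.5 TPM in the other UMPS_BKO libraries, and its gap was 0.879 of the group's range. For Car2, UMPS_BKO replicate 3 stood at 442 TPM against 45.7 to 56.9 TPM, and its gap was 0.904 of the range.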

How the results depend on the processing

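Given as a description, since the genes were chosen on this contrast, the count of the 6 called lower stayed at 0 under all 20 alternatives, and the count called higher stayed at 0 in 19 and was 1 with array weights, where Car2 passed (log2 difference 2.06). The log2 differences of Gata1, Klf1 and Car2 kept their sign in all 20, between 0.57 and 2.41, 0.32 and 2.31, and 0.61 and 2.32. Leaving out UMPS_BKO replicates 2, 3 and 4 together turned Tfrc to −0.58. At an unadjusted p under 0.05 in limma, 0 of the 6 genes passed as reported, 3 with median-of-ratios scaling and 4 with quantile normalization. The count was 2 without ribosomal RNA-like and mitochondrial features, 2 with array weights and 2 without UMPS_BKO replicate 2. Over all 10708 tested genes, 99 passed as higher and 1760 as lower as reported. With median-of-ratios scaling these were 328 and 519, and with quantile normalization 466 and 451. Nothing is read from the counts of the 6. Relative to membrane and heme genes in place of globins, the log2 difference was 0.0097 for Gata1, −0.21 for Klf1, −1.79 for Epor, −0.56 for Tfrc, −0.66 for Car1 and 0.15 for Car2, against −4.07, −4.29, −5.88, −4.64, −4.75 and −3.93 relative to globins. The causes were not tested.

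Over all genes, the 4 called higher became 1 with a pseudocount of 0.1, 0 with no filter, 1 without ribosomal RNA-like and mitochondrial features, 84 with array weights and 0 without UMPS_BKO replicates 2, 3 and 4. They ranged from 0 to 17 with single libraries left out, at 0 without control replicate 3 or 4 or UMPS_BKO replicate 2 or 3 and at 17 without UMPS_BKO replicate 1. The 10 called lower became 5 with a pseudocount of 5, 1 with no filter, 6 with a mean TPM of at least 5, 6 with median-of-ratios scaling, 5 with quantile normalization, 5 without ribosomal RNA-like and mitochondrial features, and 1906 with array weights. They became 1 without control replicate 2 and UMPS_BKO replicate 4, rich in liver and muscle transcripts, and 0 without UMPS_BKO replicates 2, 3 and 4. With single libraries left out they ranged from 1 to 231, at 1 without control replicate 3 or 4 or UMPS_BKO replicate 2 or 3, 3 without UMPS_BKO replicate 4, 6 without control replicate 2, 24 without control replicate 1 and 231 without UMPS_BKO replicate 1. With the replicate number as a block 5 genes were called higher and 23 lower, and none of the 6 was called. Same-numbered libraries did not deviate together (correlations −0.35 to −0.03), and 0 of 4 correlated best with its own number. With 4 libraries per group, this check showed no pairing by number but cannot exclude it.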

Other observations

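Red pulp macrophages, which take up aged red cells in the spleen and recycle their iron, were read in every library. Their 12 listed genes summed to 221 to 555 TPM among controls against 378, 145, 361 and 48.6 TPM in UMPS_BKO replicates 1 to 4. None of the 12 passed in limma and 0 had an unadjusted p under 0.05. Their median log2 difference was −0.79, near the −0.90 of all tested genes, with 10 below 0 and 2 above. C1qa, a complement subunit made by macrophages, stood at 57.3, 164, 124 and 80.1 TPM among controls against 79.6, 22.7, 88.8 and 3.77 TPM in UMPS_BKO. Cd5l, a secreted macrophage protein, was at 2.40 to 70.8 TPM among controls against 15.5, 12.1, 4.29 and 1.09 TPM in UMPS_BKO. Both had overlapping groups. The 2 genes with differences above 0 were Spic (1.24) and Mertk (0.46), named after their values were seen. Spic was at 0.328, 3.66, 9.93 and 0.913 TPM among controls against 6.18, 14.2, 14.8 and 1.35 TPM in UMPS_BKO, also with overlapping groups.

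Neutrophil genes, 10 in the table and 7 tested, summed to 93.0 to 617 TPM among controls against 266, 25.3, 83.3 and 0.911 TPM in UMPS_BKO replicates 1 to 4. None passed in limma, and 2 had an unadjusted p under 0.05, both lower in UMPS_BKO. Over all 10708 tested genes, 99 were higher and 1760 lower at that threshold. The median log2 difference of the neutrophil genes was −2.23, against −0.90 over all tested genes. S100a8, a subunit of calprotectin, was at 17.9 to 116 TPM among controls against 26.8, 5.71, 5.42 and 0.911 TPM in UMPS_BKO.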
